A study of Rattus norvegicus with 10 samples.

Results

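Sensory neuron identity factors are the nuclear proteins that set and keep the type of a sensory neuron of the dorsal root ganglion. Here they are 10 genes (Isl1, Pou4f1, Runx3, Drgx, Etv1, Ebf1, Myt1, Hoxa7, Hoxd1 and Rbfox3) of 14217 genes with a probe set of their own in the table. They were chosen by name, with earlier results of these data known. The values are those of every probe set whose only gene symbol is one of the 10, which gave 20 of 31042 probe sets. Isl1, Etv1, Runx3, Ebf1, Myt1 and Rbfox3 have several probe sets and the other 4 genes have 1 each.

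RNA came from axons of rat dorsal root ganglion explants kept for 4 days in a chamber with compartments, where axons over 1 cm long were collected from the outer compartment. The embryonic group held 5 arrays from embryonic day 16 and the adult group 5 arrays from adult animals, with no genetic change, drug or injury named beyond the explant culture that both stages share. The sources used here do not give strain, sex, adult age or whether a sample pooled several animals. Each sample is labelled as a biological replicate, and the cells as dorsal root ganglion neurons.

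The proteins encoded by these genes act in the nucleus, which sits in the cell body and does not enter the axon. Most of them bind DNA, and Rbfox3, the NeuN antigen, binds RNA and guides splicing. Isl1 and Pou4f1 (Brn3a) mark nearly all sensory neurons and end the programme of the precursors, while Runx3 and Etv1 belong to proprioceptive neurons and Drgx to pain-sensing ones. Hox factors carry position along the body axis. The question was whether transcripts of these nuclear factors are seen in axonal RNA and whether they differ between stages.

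All values are log2 RMA values, a microarray measure that shrinks differences of weak probe sets. Background on an array was set by 87 genes that other tissues express (100 probe sets), as the 95th percentile of their values, and it lay between 2.89 and 4.13. By the standard deviation of their values, the arrays fall into 4 of wide spread (embryonic replicates 1 and 5, adult replicates 4 and 5) and 6 of narrow spread. Arrays of wide spread had 12845 to 15455 probe sets above background, and those of narrow spread 7479 to 11435. Poly-A controls, meant to be added before labelling, averaged 1.96 to 2.56 on embryonic arrays, below the background level of each. On adult arrays they averaged 7.07 to 10.91. The labels do not say how preparation differed, and stage and preparation cannot be told apart for any gene below. The labelled neuronal origin was checked on 14 neuronal cytoskeleton and axon genes, of which 12 were above background on all 5 embryonic arrays and 8 on all 5 adult arrays. Of 20 macrophage and leucocyte markers, 2 and 13 were.

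Each of the 10 genes had a probe set above background on at least 1 array, and 4 of them had one on every array of a stage. All 5 embryonic arrays exceeded background for 4 of 20 probe sets, 1 each of Isl1, Etv1, Ebf1 and Rbfox3, against 16.7% of all probe sets. In adult samples 2 of 20 were, those of Isl1 and Etv1, against 14.2% of all probe sets. Both counts are near the share of all probe sets. By gene, with the highest probe set of each, these were 4 of 10 for embryonic and 2 of 10 for adult samples, against 27.1% and 23% of all genes. The same 2 probe sets of Isl1 and Etv1 were above background on all 10 arrays, against 9.98% of all probe sets. Of the 20, 3 were above it on none of the 10 arrays, against 33.2%. On single arrays 7 to 17 of the 20 probe sets exceeded background in embryonic and 5 to 12 in adult samples. The 2 embryonic arrays of wide spread held 17 and 15, and the other 3 embryonic arrays 7 to 9. All 10 genes had a probe set above background on embryonic replicates 1 and 5.

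**Figure D1:**
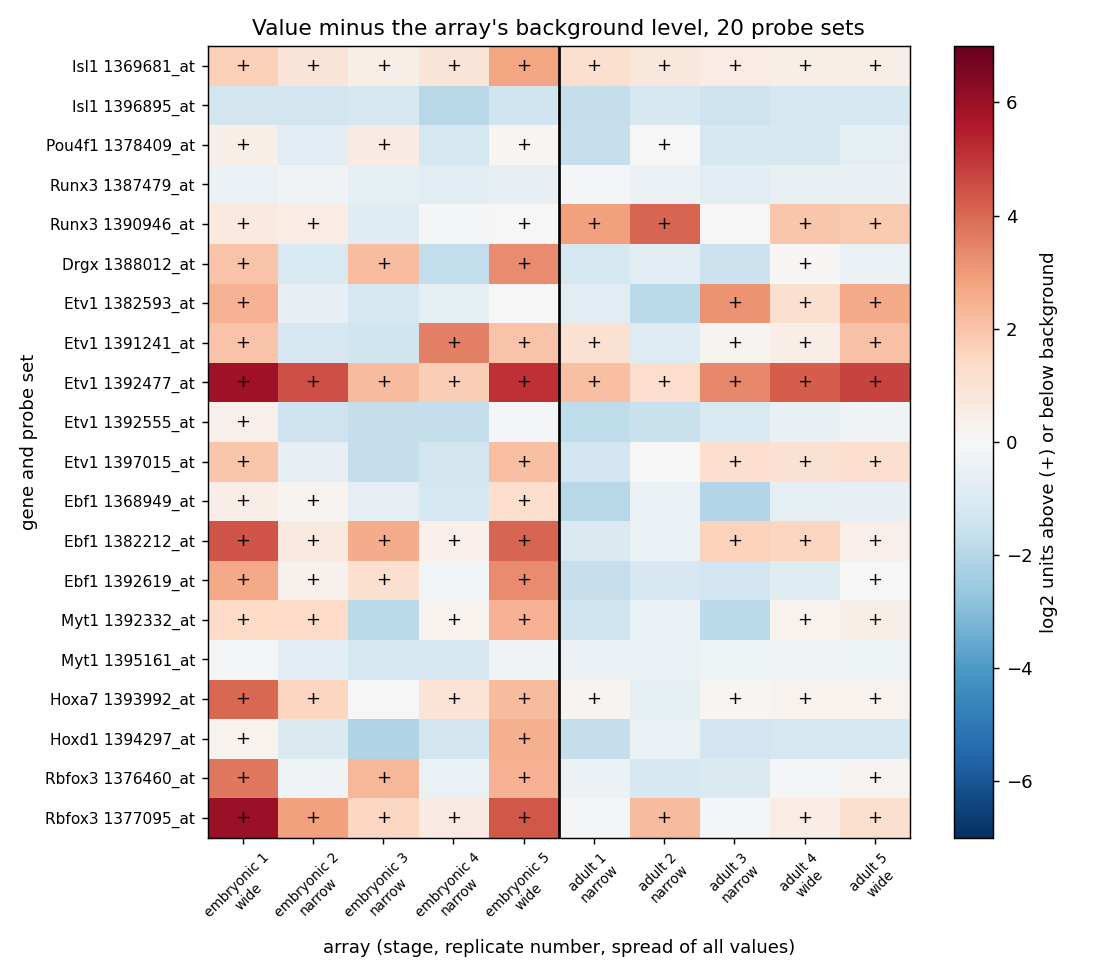
Log2 value minus the background level of the same array for the 20 probe sets (rows) on the 10 arrays (columns, with replicate number and spread); a plus sign marks values above background. The row of Etv1 1392477_at is above background throughout, and embryonic replicates 1 and 5 hold 17 and 15 plus signs.

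Etv1, an ETS family factor, was above background on every array by 1 of its 5 probe sets. Probe set 1392477_at read 9.13, 8.11, 6.31, 5.81 and 8.51 on embryonic arrays 1 to 5 and 6.06, 5.09, 7.47, 7.15 and 7.68 on adult arrays 1 to 5. The stages overlapped, and the difference, adult minus embryonic, was -0.89 ± 0.72 (SE, n = 5; 95% interval -2.48 to 0.71; limma adjusted p = 0.81). It was -0.50 without embryonic replicate 1 and -0.48 without adult replicate 2. It was the only probe set of the 20 above the stricter 99th percentile of the background genes on all 10 arrays. The other 4 Etv1 probe sets gave another picture. They averaged 2.76 to 4.68 in embryonic and 2.50 to 4.38 in adult samples, and were above background on 1 to 7 of 10 arrays. Their differences ran from -0.57 to 0.71 (limma adjusted p = 0.91 to 0.98). Probe set 1391241_at was highest on embryonic array 4 (7.63), where 1392477_at was lowest of its stage. Probe set 1382593_at was highest on adult array 3 (7.22) and at 1.99 on adult array 2.

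Isl1, the LIM homeodomain factor of all sensory neurons, was above background on every array by probe set 1369681_at. It read 4.89, 4.52, 4.56, 5.01 and 6.12 on embryonic arrays 1 to 5 and 5.05, 4.63, 4.61, 3.31 and 3.33 on adult arrays 1 to 5. The 2 lowest values are the adult arrays of wide spread, which also had the lowest background levels. Above the stricter 99th percentile it was on 4 embryonic and 2 adult arrays. Its change was -0.84 ± 0.44 (SE, n = 5; 95% interval -1.81 to 0.14; limma adjusted p = 0.61), with -2.19 on wide-spread arrays alone and 0.07 on narrow-spread ones. The other Isl1 probe set, 1396895_at, stayed below background on all 10 arrays, between 1.71 and 3.00.

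Pou4f1, the POU homeodomain partner of Isl1, lay near background in both stages. It read 3.60, 2.83, 4.71, 2.88 and 3.52 on embryonic arrays 1 to 5 and 2.30, 3.90, 3.00, 1.75 and 2.28 on adult arrays 1 to 5. It exceeded background on 3 embryonic arrays and 1 adult array, and its change was -0.86 ± 0.47 (SE, n = 5; limma adjusted p = 0.63). The interval of this difference, -1.90 to 0.18, does not show that the stages are alike, and without embryonic replicate 3 the change was -0.56.

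Drgx, the paired homeodomain factor of pain-sensing neurons, was either clearly present or at background from one embryonic array to the next. It read 5.22, 2.51, 6.29, 2.34 and 6.67 on embryonic arrays 1 to 5, and 2.72, 3.07, 2.61, 2.96 and 2.48 on adult arrays 1 to 5. Embryonic arrays 1, 3 and 5 were high and arrays 2 and 4 within or below the adult range. The change was -1.84 ± 0.82 (SE, n = 5; limma adjusted p = 0.50).

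**Figure D2:**
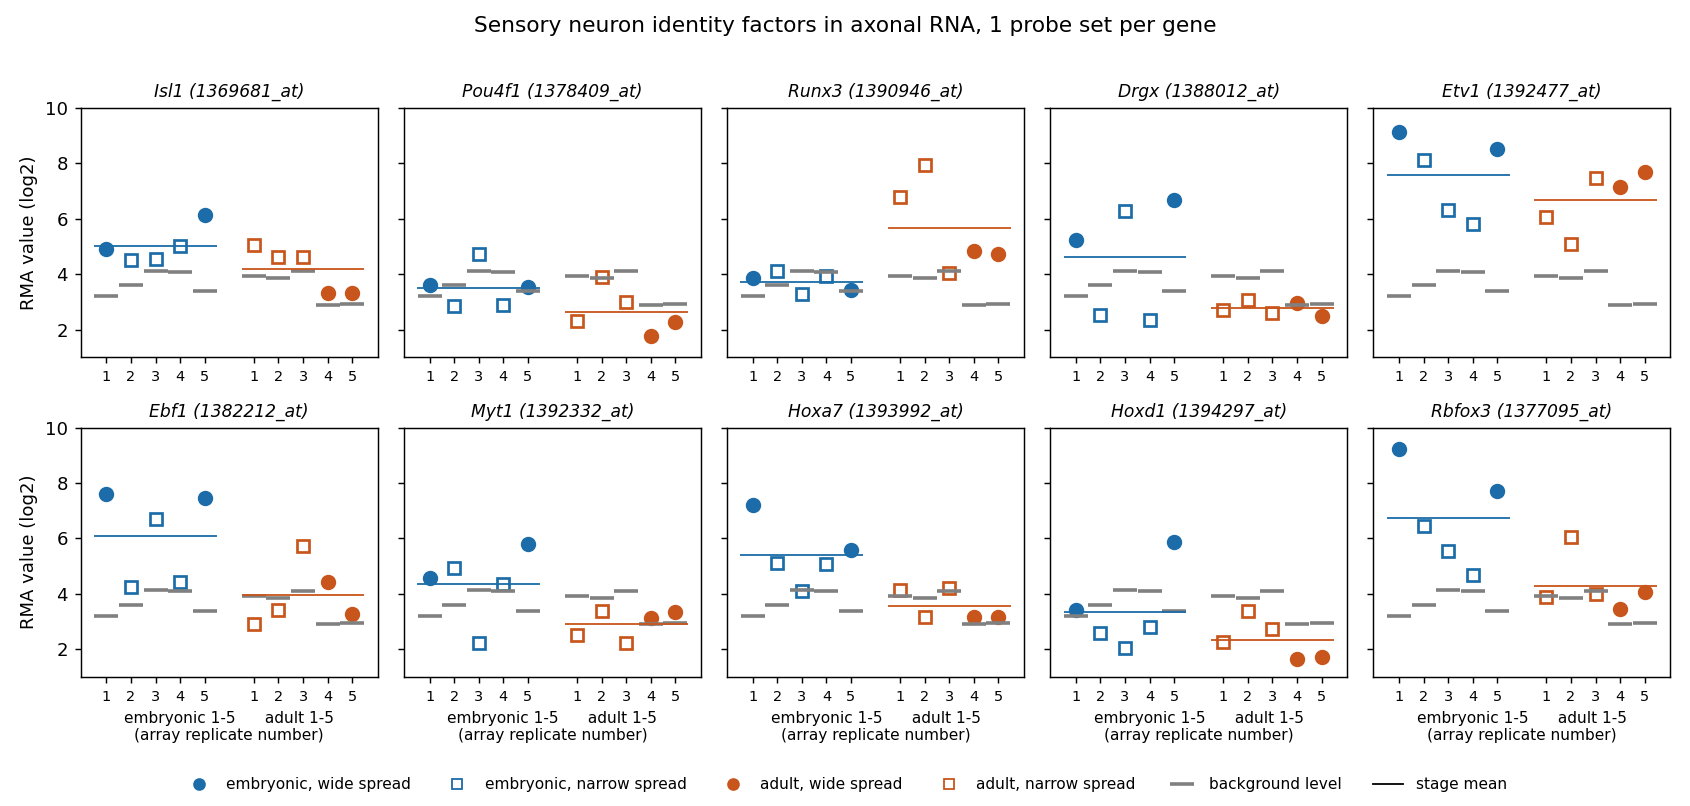
Log2 RMA value of each of the 10 genes, by its probe set with the highest mean, on embryonic arrays (blue) and adult arrays (orange), with the stage mean as a line and the array's background level as a grey mark; filled circles are arrays of wide spread and open squares of narrow spread. Drgx, Ebf1 and Rbfox3 are high on embryonic replicates 1 and 5, and Runx3 on adult replicates 1 and 2. Drgx and Ebf1 are also high on embryonic replicate 3, which is of narrow spread.

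Ebf1, an early B-cell factor that is also made in developing neurons, had the lowest p of the 10 genes. Probe set 1392619_at read 5.85, 3.88, 5.27, 3.92 and 6.67 on embryonic arrays 1 to 5 and 2.31, 2.67, 2.74, 2.04 and 2.94 on adult arrays 1 to 5. It was the only one of 20 probe sets whose stages did not overlap with adult values lower, against 1.42% of all probe sets. The change was -2.58 ± 0.52 (SE, n = 5; 95% interval -3.73 to -1.42), with a limma adjusted p of 0.052, which missed the threshold of 0.05. The call was made without embryonic replicate 2 (adjusted p = 0.041) or embryonic replicate 4 (0.030), and over all alternatives the adjusted p ran from 0.024 to 0.21. It was also made after quantile normalization (0.024) and with array spread as a block (0.032), while within the 6 arrays of narrow spread the change was -1.78 (adjusted p = 0.21).

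The other 2 Ebf1 probe sets pointed the same way. Probe set 1382212_at, above background on all embryonic and 3 adult arrays, read 7.60, 4.26, 6.71, 4.43 and 7.45 in embryonic and 2.90, 3.42, 5.73, 4.42 and 3.27 in adult samples (change -2.14 ± 0.79, SE, n = 5; limma adjusted p = 0.35). Adult array 3 lay within the embryonic range. Probe set 1368949_at averaged 3.70 in embryonic and 2.40 in adult samples (change -1.30 ± 0.37, SE, n = 5; limma adjusted p = 0.18). It was above background on 3 embryonic arrays and 0 adult arrays, so no fold is given.

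Rbfox3 was lower in adult samples by both of its probe sets without passing the test. Probe set 1377095_at read 9.22, 6.45, 5.55, 4.68 and 7.70 on embryonic arrays 1 to 5 and 3.87, 6.07, 4.00, 3.44 and 4.06 on adult arrays 1 to 5. Every embryonic array was above background, as were adult arrays 2, 4 and 5, and adult array 2 overlapped the embryonic range. The change was -2.43 ± 0.82 (SE, n = 5; 95% interval -4.23 to -0.63; limma adjusted p = 0.28). Probe set 1376460_at read 6.91, 3.33, 6.43, 3.62 and 5.79 in embryonic and 2.71 to 3.53 in adult samples, a change of -2.17 ± 0.67 (limma adjusted p = 0.23). Its embryonic arrays 2 and 4 were low, as they were for Drgx and Ebf1.

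Myt1, a zinc finger factor of neuronal differentiation, read 4.57, 4.93, 2.21, 4.34 and 5.78 on embryonic arrays 1 to 5 and 2.52, 3.39, 2.24, 3.12 and 3.34 on adult arrays 1 to 5 by probe set 1392332_at. Embryonic array 3 was the lowest of all, so the stages overlapped, and the change was -1.45 ± 0.58 (SE, n = 5; limma adjusted p = 0.41). The other Myt1 probe set was below background on all 10 arrays.

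Both Hox genes were lower in adult samples on average. Hoxa7 read 7.20, 5.12, 4.11, 5.06 and 5.57 on embryonic arrays 1 to 5 and 4.12, 3.16, 4.20, 3.15 and 3.16 on adult arrays 1 to 5. It was above background on 4 arrays of each stage, but above the stricter 99th percentile on 4 embryonic and 0 adult arrays. Its change was -1.85 ± 0.52 (SE, n = 5; 95% interval -3.00 to -0.71; limma adjusted p = 0.17). Embryonic array 3 overlapped the adult values. Hoxd1 exceeded background on embryonic arrays 1 (3.42) and 5 (5.85) and on no adult array, and read 2.60, 2.04 and 2.79 on the other embryonic arrays and 1.64 to 3.38 on adult ones. Its change of -0.99 ± 0.67 had a limma adjusted p of 0.74, and without embryonic replicate 5 it was -0.36.

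Runx3, the runt domain factor of proprioceptive neurons that T cells and other leucocytes also make, was the one gene with a higher adult mean by its highest probe set. Probe set 1390946_at read 3.87, 4.12, 3.29, 3.93 and 3.42 on embryonic arrays 1 to 5 and 6.79, 7.93, 4.05, 4.83 and 4.74 on adult arrays 1 to 5. Adult arrays 1 and 2 were far above the rest, and adult array 3 lay just below embryonic array 2, so the stages overlapped. The change was 1.94 ± 0.67 (SE, n = 5; 95% interval 0.47 to 3.41; limma adjusted p = 0.30). On wide-spread arrays alone it was 1.14, and 2.48 on narrow-spread ones. Probe set 1387479_at was below background on all 10 arrays, with a change of -0.05, so the higher adult mean rests on 1 of the 2 probe sets.

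Leucocyte markers were also higher in adult samples. Of 20 measured macrophage and leucocyte markers, 9 were called higher and 0 lower in adult samples by limma, against 0.612% of all genes called higher. The 9 were Adgre1, Lyz2, Ptprc, Aif1, Fcgr2b, Lcp1, Cd14, C1qa and Mrc1, most of them surface proteins or products of macrophages. The log2 of the summed linear values of all 20 markers was 7.88 to 10.93 on embryonic and 12.62 to 13.81 on adult arrays. Within the adult stage it was 13.77 and 12.88 on arrays 1 and 2, where Runx3 was highest, and 13.47, 13.81 and 12.62 on arrays 3 to 5. The T-cell marker Cd3e and the B-cell marker Cd79b were below background on all 10 arrays. The part of leucocyte RNA in the Runx3 values was not tested. The neurotrophin receptor Ntrk3, which the proprioceptive neurons carry, was also below background on all 10 arrays by its highest probe set. Etv1, the other factor of proprioceptive neurons among the 10 genes, was above background on all 10 arrays by 1 of its 5 probe sets. Which cells the Runx3 RNA came from was not tested.

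**Figure D3:**
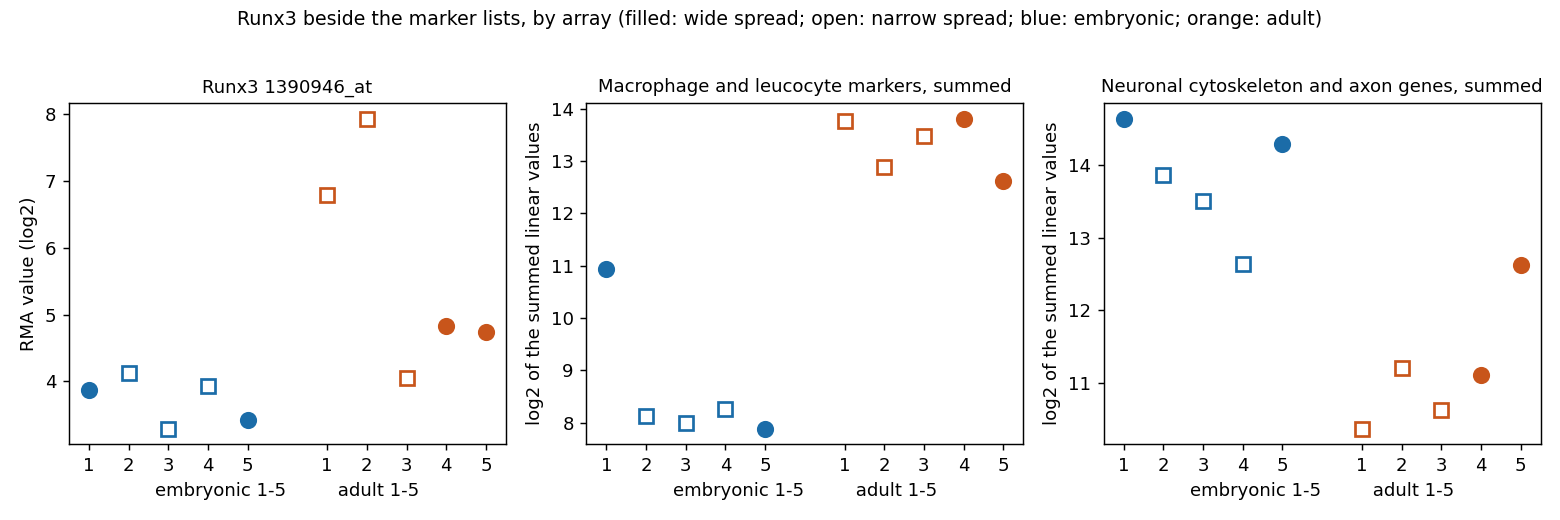
Log2 RMA value of Runx3 1390946_at and log2 summed linear values of 20 macrophage and leucocyte markers and of 14 neuronal cytoskeleton and axon genes on each array (blue embryonic, orange adult; filled wide spread, open narrow). The leucocyte sum is between 12.62 and 13.81 on every adult array while Runx3 ranges from 4.05 to 7.93.

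Because Runx3 was the gene with the opposite direction, its start regions are shown. RefSeq (build GRCr8) gives 2 windows for it, each 250 bases before to 50 after a start, on chr5:152644020-152644319 and chr5:152677396-152677695, both on the plus strand. The letters aaccaca, a core that runt domain proteins bind, were searched on both strands, and matches are in capitals; no other motif was searched, so none overlaps it.

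Runx3 upstream start: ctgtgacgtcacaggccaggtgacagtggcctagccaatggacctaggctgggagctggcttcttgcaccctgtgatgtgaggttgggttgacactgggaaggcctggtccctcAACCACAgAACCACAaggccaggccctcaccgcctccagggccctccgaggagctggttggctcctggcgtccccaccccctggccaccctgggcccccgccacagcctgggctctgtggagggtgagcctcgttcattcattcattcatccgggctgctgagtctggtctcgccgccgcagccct
Runx3 downstream start: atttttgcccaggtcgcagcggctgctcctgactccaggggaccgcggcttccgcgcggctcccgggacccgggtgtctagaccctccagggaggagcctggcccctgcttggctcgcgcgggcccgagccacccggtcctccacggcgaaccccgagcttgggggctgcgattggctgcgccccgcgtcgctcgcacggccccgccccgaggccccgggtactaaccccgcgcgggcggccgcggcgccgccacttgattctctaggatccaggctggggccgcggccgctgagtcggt

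The upstream window holds the motif at 2 neighbouring places and the downstream window at 0. Of all 33469 windows in the RefSeq table, 5.57% hold at least 1 match and 0.167% hold 2 or more. Windows were found for 9 of the 10 genes, and the upstream Runx3 window was the only one of their 10 windows with a match. The arrays do not tell which start the measured transcripts came from.

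Over all 20 probe sets, 16 were lower and 4 higher in adult samples on average, and 0 passed an adjusted p of 0.05 by limma, against 0.831% of all probe sets. At an unadjusted p under 0.05 there were 9, against 9.84%. With adult values all higher and no overlap there were 0, against 1.16%. Adjusted p values ran from 0.052 to 0.99. As the 10 genes were chosen with earlier results of these data known, their directions beside all probe sets are a description only. The median change of the 20 was -0.87, and 0.0015 over all 31042 probe sets, of which 49.8% were lower. With 1 probe set a gene, 9 of 10 were lower, with a median of -1.22. Of these 10 probe sets 0 were called by limma (1.26% of all genes), 6 had an unadjusted p under 0.05 (13.3%), 0 were lower without overlap (1.86%) and 0 were below background on all 10 arrays (19.6%). RMA compresses weak values, and how far this altered differences near background was not measured here.

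**Figure D4:**
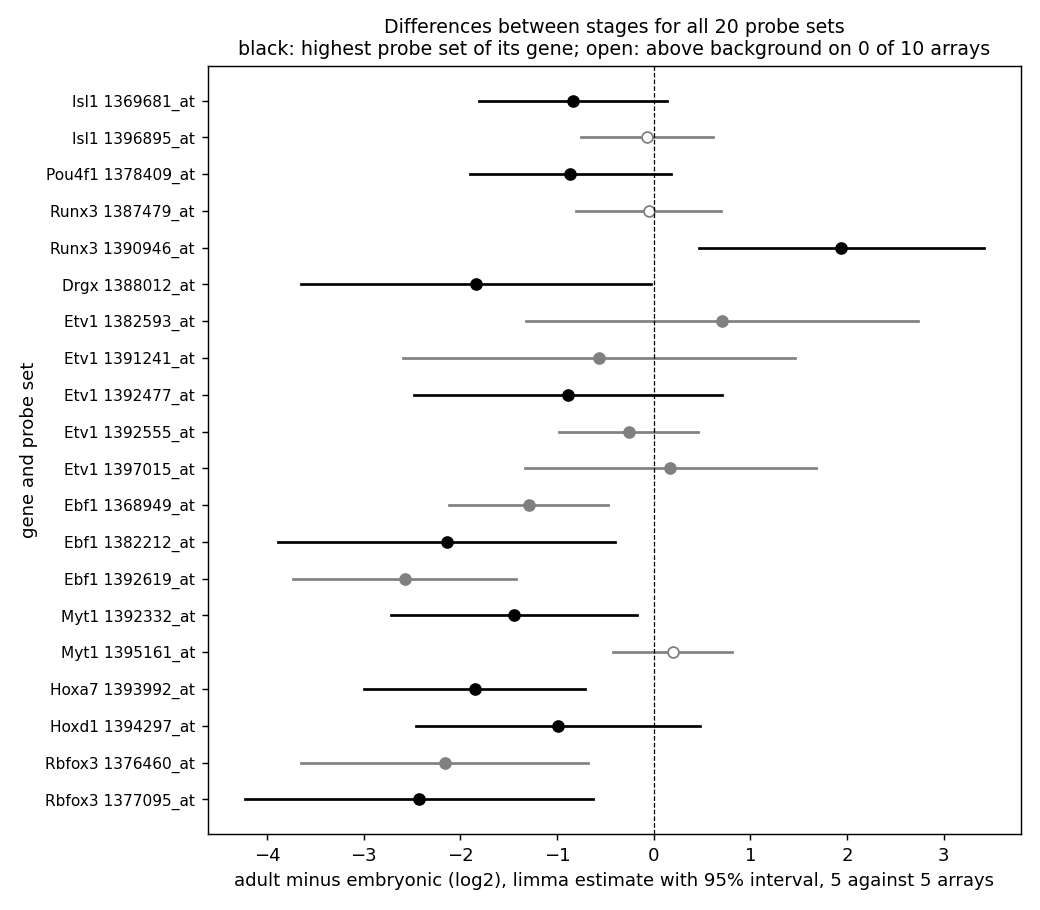
Adult minus embryonic log2 difference of each of the 20 probe sets, by limma over 5 against 5 arrays, with its 95% interval; black marks the highest probe set of a gene and open points those above background on 0 of 10 arrays. Intervals of 9 probe sets leave out 0, among them all 3 of Ebf1 and both of Rbfox3, and the one of them above 0 is Runx3 1390946_at.

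The spread of the arrays moved with these differences. Within the 4 arrays of wide spread 18 of 20 probe sets were lower in adult samples, with a median of -1.69, and within the 6 of narrow spread 11 were, with a median of -0.29. Over all probe sets the medians were -0.06 and 0.02. With 1 probe set a gene, the medians were -2.57 and -0.73. Rbfox3 1377095_at changed by -4.71 within wide and -0.92 within narrow arrays, Ebf1 1382212_at by -3.68 and -1.11, and Hoxa7 by -3.23 and -0.94. Hoxd1 and Isl1 had the opposite sign within narrow arrays (0.32 and 0.07). Embryonic replicates 1 and 5 were each the highest embryonic array for 4 of the 10 genes.

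**Figure D5:**
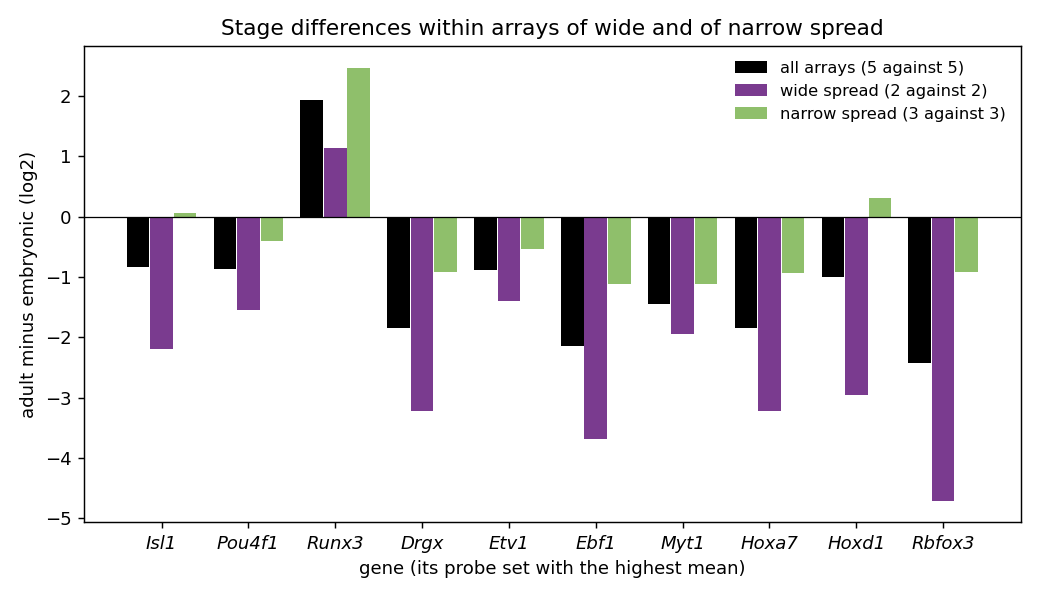
Adult minus embryonic log2 difference of the 10 genes, by its highest probe set, over the 10 arrays (5 against 5), within arrays of wide spread (2 against 2) and within arrays of narrow spread (3 against 3). The wide-spread bars are the longest for the 9 genes that are lower in adult samples, and Isl1 and Hoxd1 cross 0 in narrow arrays.

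Many neuronal cytoskeleton and axon genes were lower in adult samples. Of 14 neuronal cytoskeleton and axon genes, 9 were called lower and 0 higher in adult samples by limma, against 0.647% of all genes called lower, with a median change of -3.12. The 9 were Tubb3, Nefl, Nefm, Prph, Map1b, Mapt, Basp1, Dcx and Elavl4, among them tubulin, neurofilament and microtubule-binding genes. Nefh, Gap43, Stmn2, Uchl1 and Ina did not pass, with changes of 0.11, -1.17, -2.23, -2.38 and -1.85. The log2 summed values of all 14 genes were 12.63 to 14.63 on embryonic and 10.37 to 12.62 on adult arrays, highest on embryonic replicates 1 and 5. In bulk RNA, fewer cells or axons of a type and less RNA in each cannot be told apart. The part of these shifts in the lower values of the nuclear factors was not tested.

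Of 12 measured relatives from the same families as the 10 genes, 1 was called lower by limma and 0 higher, against 0.647% and 0.612% of all genes. It was Rbfox1, the paralogue of Rbfox3, at 8.02 ± 1.64 (SD, n = 5) in embryonic and 4.22 ± 0.84 in adult samples (change -3.80 ± 0.73, SE; limma adjusted p = 0.044) by its highest probe set, with the stages not overlapping. Runx1, a factor of pain-sensing neurons, was at 7.17 ± 0.88 and 7.16 ± 1.58 (limma adjusted p = 0.999) and was above background on all 10 arrays. The 95% interval of its change, -1.60 to 1.58, does not show that the stages are alike. Its change was -1.52 on wide-spread arrays alone and 0.99 on narrow-spread ones. Which cells its RNA came from was not tested.

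Of 37 other factors of the sensory lineage, 31 were lower on average, against 50.1% of all genes, with a median change of -0.32. With only the wide-spread arrays this median was -0.63, and with only the narrow-spread ones it was -0.08. The list is not separate from the relatives above, as Runx1, Isl2, Etv4, Etv5, Ebf2, Myt1l and St18 belong to both. By limma 1 of the 37 was called lower (0.647% of all genes) and 0 higher (0.612%). The called gene was Pknox2, a homeodomain cofactor, with a mean of 5.29 ± 0.88 (SD, n = 5) in embryonic samples and 2.66 ± 0.36 in adult ones (change -2.63 ± 0.41, SE; limma adjusted p = 0.014). All 5 embryonic arrays exceeded background for 7 of the 37 and all 5 adult arrays for 4, or 18.9% and 10.8%, against 27.1% and 23% of all genes. The precursor factors Neurog1, Neurog2 and Neurod1 and the pain lineage factor Tlx3 were among 7 that stayed below background on all 10 arrays.

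Beside Hoxa7 and Hoxd1, 20 other Hox genes were measured. Of these 16 were lower on average (median -0.62), against 50.1% of all genes. This median was -0.37 with only the wide-spread arrays and -0.64 with only the narrow-spread ones. By limma 1 was called lower and 0 higher, against 0.647% and 0.612%. All embryonic arrays exceeded background for 5 of the 20 and all adult arrays for 2, against 27.1% and 23% of all genes. The called gene, Hoxa10, averaged 3.96 ± 0.27 (SD, n = 5) in embryonic samples and 2.32 ± 0.35 in adult ones (change -1.64 ± 0.25, SE; limma adjusted p = 0.013), with 4 embryonic and 0 adult arrays over background. Of 3 measured nuclear RNAs that make no protein, 0 passed by limma (1.26% of all genes) and 2 had an unadjusted p under 0.05 (13.3%). Meg3, one of them, averaged 8.39 ± 1.97 in embryonic samples and 4.19 ± 0.80 in adult ones (limma adjusted p = 0.051), above background on all 10 arrays and without overlap between stages. Snhg11, another of them, had a change of -0.68 (limma adjusted p = 0.70).

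Genes that identity factors help to switch on were measured for 22 genes, such as neurotrophin receptors, peptides and channels. Of these 1, the intermediate filament gene Prph, was called lower by limma (limma adjusted p = 0.020) and 0 higher, against 0.647% and 0.612% of all genes. Prph and Nefh also belong to the neuronal cytoskeleton and axon genes above, where the same call of Prph was counted. In each stage 7 of the 22, or 31.8%, exceeded background on every array, against 27.1% of all genes for embryonic and 23% for adult samples. On average 13 of the 22 were lower and 9 higher in adult samples, against 50.1% of all genes lower. The list median was -0.45, with -1.37 on wide-spread arrays alone and 0.02 on narrow-spread ones. Sodium channel Scn10a was above background on all 10 arrays, at 6.77 ± 1.27 (SD, n = 5) in embryonic and 5.40 ± 0.91 in adult samples (limma adjusted p = 0.52).

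Other cell types of a ganglion that can make some of these factors were also followed. Of 19 Schwann and satellite glial genes and 15 fibroblast genes, 0 were called by limma (1.26% of all genes), with 4 and 3 at an unadjusted p under 0.05 (13.3%). Among those above background on all 5 arrays of a stage, the glial changes ran from -1.72 (Fabp7) and -0.67 (Cnp) to 2.48 (Apoe) and 2.58 (Pmp22). The fibroblast ones were -3.63 (Postn), -1.21 (Col1a2), -0.45 (Thy1) and 0.33 (Vim). In the whole glial list 13 genes were higher and 6 lower in adult samples (median 0.28). The 4 glial genes at an unadjusted limma p under 0.05 were all higher. Over the whole fibroblast list 8 were higher and 7 lower (median 0.07), and Dcn (4.26) and Pdgfra (1.88), which were above background on fewer arrays, had an unadjusted p under 0.05 in the other direction from Postn. Their log2 summed values were 9.56 to 11.52 on embryonic and 10.46 to 12.70 on adult arrays for glia, and 10.09 to 11.62 and 9.29 to 13.19 for fibroblasts. The fibroblast genes Fap, Tcf21 and Fbln1 and the glial genes Kcnj10 and Foxd3 were below background on all 10 arrays. Their part in the values of the nuclear factors was not tested.

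For the 4 genes above background on all 5 arrays of a stage, the 2 most similar patterns over the 10 arrays were sought among 4793 genes above background on all 5 arrays of a stage. Likeness was Pearson's r over arrays that share stage, preparation and spread, and is a description only. Etv1 was followed by Chchd7 (r = 0.95, Spearman's rho = 0.98) and Pdcd2l (r = 0.92, rho = 0.94). Ebf1 was followed by Ap3b2, a neuronal subunit of a vesicle adaptor (r = 0.95, rho = 0.89), and the spectrin gene Sptan1 (r = 0.92, rho = 0.79). Rbfox3 was followed by Apba1, a neuronal adaptor protein (r = 0.92, rho = 0.89), and Ctxn1 (r = 0.92, rho = 0.95). Isl1 had the loosest matches, with Trim46, a protein of the axon's initial segment, at r = 0.88 (rho = 0.64) and the glutamate receptor Grm8 at r = 0.86 (rho = 0.53).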

How the data were processed

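The deposited log2 values of 10 rat expression arrays were made by the authors with RMA, per the submitters' processing notes. The sources used here give neither version nor options of RMA, nor whether it was run jointly on the 10 arrays. That the logarithm has base 2 was inferred from the value range. Of 31099 probe sets, 57 controls were left out and 31042 were tested; 20826 carry 1 gene symbol, 436 several and 9780 none, per the platform annotation. A newer gene table held the gene numbers of 20758 of them and changed 0 symbols. The 3 probe sets that share a symbol of the 10 genes with another gene were left out.

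The stage difference (adult minus embryonic) came from limma 3.58.1, run in R 4.3.3 with lmFit and eBayes as a two-sided test on the 10 arrays, with Benjamini-Hochberg adjustment over all 31042 probe sets; every adjusted p is limma's. Lists used 1 probe set a gene, the one with the highest mean, and no set test. The fit was tested on simulated data. The text names every probe set of the 10 genes, called genes of each other list (otherwise the 2 highest and 2 lowest changes among genes above background on all arrays of a stage) and the 2 most similar genes. Runx1, Ntrk3, Scn10a, Dcn, Pdgfra, the neuronal genes that did not pass, the precursor factors and the markers named as below background were singled out after their values were seen. The members and lists were chosen with earlier results of these data known. Replicate numbers did not pair the samples (correlation of same-numbered deviations -0.12 to 0.28). The labels say biological replicate without naming separate animals, so p values measure the spread between these samples, and the number of arrays limits the precision. Figures used Python 3.11.15, pandas 2.3.3 and matplotlib 3.10.9.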

Additional observations from a re-analysis of the deposited data

Results flagged for a closer look

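In 40 groups of 5 arrays (20 probe sets in 2 stages), 3 single values lay far from the rest of their group, where chance gives about 1 in 20 groups. Etv1 1382593_at was at 5.61 on embryonic replicate 1, with the other embryonic arrays at 2.97 to 3.43. Rbfox3 1377095_at was at 6.07 on adult replicate 2, with the other adult arrays at 3.44 to 4.06. Ebf1 1368949_at was at 3.39 on the same array, with the others at 1.99 to 2.38, all of them below background.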

How the results depend on the processing

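Called probe sets among the 20 numbered 0 in the deposited values and 1 (Ebf1 1392619_at) under a filter on weak probe sets, quantile normalization, a trended robust variance and array spread as a block, and 0 to 1 without single arrays. Over all probe sets (258 called) these counts were 436 with the filter, 401 with the spread block, 0 within wide-spread arrays and 150 to 339 without single arrays (165 without adult replicate 1, 150 without adult replicate 4, 162 without embryonic replicate 3 and 153 without embryonic replicate 5). Replicate numbers did not pair the samples; with the replicate block 191 were called, 0 of the 20 and 0 of the other sensory factors, where Pknox2 was also lost within wide-spread (0) and narrow-spread arrays (0).

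Probe sets above background on all embryonic arrays (4) became 2 with the 99th percentile, 7 with at least 4 arrays and 13 with at least 3, and 4 to 6 without single arrays. Adult ones (2) became 4 with the 90th percentile, 1 with the 99th, 5 and 9 with fewer arrays, and 2 to 4 without single arrays (4 without adult replicate 2).

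Signs turned for 9 of the 20 probe sets, none of them called. Within narrow-spread arrays they were 0.066 for Isl1 1369681_at, 0.054 for Isl1 1396895_at, 0.17 for Runx3 1387479_at, 0.15 for Etv1 1392555_at and 0.32 for Hoxd1. Within wide-spread arrays they were -1.27 for Etv1 1397015_at and -0.50 for Myt1 1395161_at, and with array weights 0.054 for Runx3 1387479_at and -0.15 for Etv1 1397015_at. Without single arrays, Isl1 1396895_at ran from -0.20 to 0.11, Runx3 1387479_at from -0.25 to 0.13, Etv1 1382593_at from -0.0050 to 1.30, Etv1 1391241_at from -1.13 to 0.17 and Etv1 1397015_at from -0.16 to 0.59. The causes were not tested. Another list of background genes was planned and not run. Values near background limit what these arrays can show.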
